A study of Schizosaccharomyces japonicus with 6 samples.

Results

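The meiotic transcripts followed here in vegetatively growing fission yeast *Schizosaccharomyces japonicus* were those of *mei4*, *ssm4*, *rec8*, *spo5*, *rem1*, *crs1*, *meu32* and *meu10*. These 8 genes were taken by gene symbol from a table of 5272 genes. They had been selected on their FPKM values in the *pab2*Δ and WT libraries as well as on their names, so their difference between these strains is given as a description without a test, and the comparison of *clr4-1* with WT is the one that was tested. That test uses the same WT libraries, so a choice of genes low in WT can raise *clr4-1* minus WT as well. Its filter and its estimate of spread also use the *pab2*Δ libraries. Total RNA was sequenced from *pab2*Δ cells, from *clr4-1* cells and from WT cells, with 2 libraries per strain that the design describes as biological replicates.

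*pab2*Δ cells have the *pab2* gene, which encodes the nuclear poly(A)-binding protein, replaced by a *natMX6* drug marker. *clr4-1* cells carry a temperature-sensitive allele, made by error-prone PCR, of the gene for the histone H3 Lys9 methyltransferase, together with *natMX6* beside it. All 3 strains were of one mating type, shared a *ura4-D3 ade6-domK* background, and were grown to mid-log phase in rich YES medium at 30°C. Each mutant was represented by a single strain, and the *clr4-1* libraries came from 30°C, the same temperature as WT.

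In *S. pombe*, the relative in which most roles below are known, cells that divide by mitosis already make a set of meiotic transcripts but destroy them in the nucleus. The YTH-family protein Mmi1 binds such transcripts, and the Red1 complex, Pab2 and the nuclear exosome with Rrp6 take part in their removal. During meiosis Mmi1 is sequestered and the transcripts accumulate. Clr4 deposits histone H3 Lys9 methylation, the mark of heterochromatin, and in *S. pombe* this mark has also been found over meiotic genes, *mei4* and *ssm4* among them. In *S. japonicus*, chromatin immunoprecipitation by the authors found H3 Lys9 di-methylation not significantly enriched at *mei4* or *ssm4*.

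The values are taken as FPKM, a read measure divided by transcript length and by library size, which allows levels to be compared between genes and gives no number of reads. The depth of each library is therefore unknown. The sums of FPKM were 920550 and 910209 in *pab2*Δ, 1080821 and 1063580 in *clr4-1*, and 1068001 and 1047611 in WT. The *pab2* gene itself had the value 0 in each *pab2*Δ library, 161 and 174 FPKM in *clr4-1*, and 145 and 142 in WT. *clr4* read 9.70 and 7.99 FPKM in *pab2*Δ, 19.6 and 23.3 in *clr4-1*, and 9.34 and 9.48 in WT. Over all 4899 genes tested, the median difference in log2(FPKM + 1) was 0.19 for *pab2*Δ minus WT and -0.06 for *clr4-1* minus WT, and unweighted TMM scaling between libraries moved the first to -0.008. Changes in *pab2*Δ are therefore read beside this shift of 0.19. Markers of late sporulation summed to 66.4 and 67.8 FPKM in *pab2*Δ, 41.1 and 39.1 in *clr4-1*, and 44.1 and 46.6 FPKM in WT over 6 genes. In this sum *meu14* alone was at 19.3 and 18.2 FPKM in *pab2*Δ against 2.29 and 2.14 FPKM in WT, while *agn2* was lower in *pab2*Δ. The 3 mating markers in the table summed to 31.9 and 32.6 FPKM in *pab2*Δ, 17.1 and 16.2 in *clr4-1*, and 20.4 and 20.3 FPKM in WT. Their part in the differences below was not tested, and in bulk RNA more cells that make a transcript and more RNA per cell cannot be told apart.

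In WT cells the 8 transcripts were scarce. The median gene above 0 was at 26.5 FPKM, and the highest of the 8, *ssm4*, was at 7.18 and 6.85 FPKM, which placed it at percentile 13.0 of the genes above 0. The next was *mei4*, at 3.42 and 2.69 FPKM, and after it came *spo5*, at 1.54 and 1.5 FPKM. These 3 were ordered without overlap between their libraries. *meu10* stood at 1.03 and 0.977 FPKM, *meu32* at 0.426 and 1.04 FPKM, and *rec8* at 0.423 and 0.706 FPKM, so that the order of *meu10* and *meu32*, and of *meu32* and *rec8*, did not exceed the spread between libraries. The 2 cyclin genes were lowest. *rem1* was at 0.140 and 0.111 FPKM, and *crs1* was at 0.230 FPKM in one WT library and listed at 0 in the other, so these also overlapped. Only 4 of the 8 had a WT mean of at least 1 FPKM.

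Deletion of *pab2* went with a different order. The 8 transcripts together summed to 109.2 and 109.5 FPKM in *pab2*Δ, 16.8 and 16.4 in *clr4-1*, and 14.4 and 13.9 FPKM in WT. *meu10* and *meu32*, numbers 4 and 5 in WT, were the most abundant of the 8 in *pab2*Δ, followed by *spo5*, and *ssm4*, first in WT, was number 4 in *pab2*Δ. For all 8 transcripts both *pab2*Δ libraries lay above both WT libraries, which was so for 61.4% of the 4899 genes tested. All 8 likewise lay above both *clr4-1* libraries, against 68.0% of those genes. The lowest *pab2*Δ library exceeded the highest WT library by more than 2-fold for 7 of the 8, where 7.61% of the 4968 genes above 0 in a WT library did. Since the choice of the 8 used these libraries, nothing is read from those counts.

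**Figure D1:**
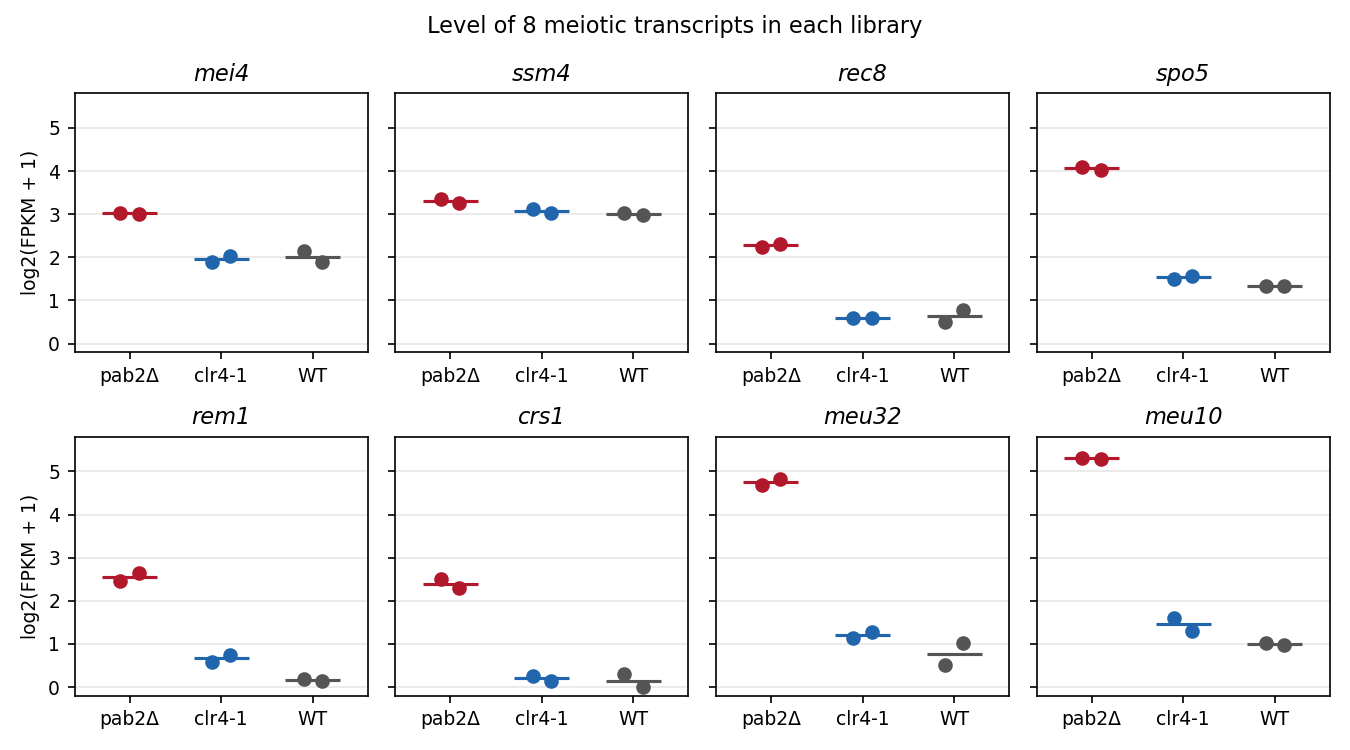
Level of each of the 8 meiotic transcripts on the y axis, in log2(FPKM + 1), in the libraries of *pab2*Δ, *clr4-1* and WT on the x axis, with each point 1 library and each line the mean of 2. The *pab2*Δ points lie above those of the other strains in all 8 panels, least so for *ssm4*, and the *clr4-1* points lie near those of WT.

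The transcription factor and the dynactin subunit differed least. *mei4* (SJAG_05288), which encodes the forkhead transcription factor that switches on the middle meiotic genes in *S. pombe*, was at 7.13 and 7.07 FPKM in *pab2*Δ, 2.72 and 3.06 in *clr4-1*, and 3.42 and 2.69 FPKM in WT. Its *pab2*Δ mean was 2.32 times that of WT, and its lowest *pab2*Δ library was 2.07 times the highest WT library, so *mei4* lies close to a 2-fold limit. The *clr4-1* and WT libraries of *mei4* overlapped. *ssm4* (SJAG_00140), which encodes the p150-Glued subunit of dynactin needed in *S. pombe* for the nuclear movement of meiotic prophase, was at 9.16 and 8.64 FPKM in *pab2*Δ, 7.73 and 7.20 in *clr4-1*, and 7.18 and 6.85 FPKM in WT. The *pab2*Δ mean of *ssm4* was 1.27 times that of WT, a difference of 0.30 on the log2(FPKM + 1) scale as deposited and 0.11 after TMM scaling. Its difference between *pab2*Δ and *clr4-1* was 0.23 as deposited and -0.02 after TMM scaling, so the direction of that difference depends on the scaling.

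The meiotic cohesin subunit and the RNA-binding protein showed intermediate differences. *rec8* (SJAG_03926) encodes the cohesin subunit that replaces Rad21 in meiosis and holds sister centromeres together through the first division. It was at 3.75 and 3.99 FPKM in *pab2*Δ, 0.507 and 0.498 in *clr4-1*, and 0.423 and 0.706 FPKM in WT, with a ratio of means of 6.86 between *pab2*Δ and WT. Both *clr4-1* values of *rec8* lay between the WT values. *spo5* (SJAG_04271) encodes an RNA-binding protein that *S. pombe* needs for the second meiotic division and for sporulation. It was at 16.0 and 15.4 FPKM in *pab2*Δ, 1.83 and 1.98 in *clr4-1*, and 1.54 and 1.5 FPKM in WT, which is a ratio of means of 10.3 between *pab2*Δ and WT. The WT libraries of *spo5* were the closest of the 8, 1.02-fold apart, so its ratio depends little on which of them is used.

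The 2 meiotic cyclin genes reached similar levels in *pab2*Δ and differed from each other in *clr4-1*. *rem1* (SJAG_03525), a cyclin gene whose product acts in meiotic recombination and the first division in *S. pombe*, was at 4.48 and 5.23 FPKM in *pab2*Δ, 0.506 and 0.665 in *clr4-1*, and 0.140 and 0.111 FPKM in WT. The *pab2*Δ mean of *rem1* was 38.7 times that of WT, a ratio set by a WT level near 0.1 FPKM. *rem1* was also the only one of the 8 whose lowest *clr4-1* library was more than 2-fold above the highest WT library, by 3.62-fold. *crs1* (SJAG_00100), the other meiosis-specific cyclin gene, was at 4.67 and 3.88 FPKM in *pab2*Δ, 0.198 and 0.109 in *clr4-1*, and 0.230 FPKM and listed at 0 in WT. Its lowest *pab2*Δ library was 16.9 times its higher WT library, and the library listed at 0 gives no fold. In *pab2*Δ the libraries of *rem1* and *crs1* overlapped in level, as did those of *crs1* and *rec8*.

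The 2 genes named for meiotic upregulation reached the highest levels. *meu32* (SJAG_00377), annotated as a sequence orphan, was at 24.9 and 27.1 FPKM in *pab2*Δ, 1.21 and 1.44 in *clr4-1*, and 0.426 and 1.04 FPKM in WT. Its lowest *pab2*Δ library was 24.1 times the highest WT library, and its WT values themselves differed 2.43-fold. *meu10* (SJAG_03483), which encodes a GPI-anchored cell surface protein of ascospore wall assembly, was at 39.0 and 38.2 FPKM in *pab2*Δ, 2.05 and 1.47 in *clr4-1*, and 1.03 and 0.977 FPKM in WT. Its lowest *pab2*Δ library was 37.2 times the highest WT library. Ranked by this ratio of lowest *pab2*Δ to highest WT library among the 4968 genes, *meu10* was 4th, *rem1* 8th, *meu32* 13th, *crs1* 27th, *spo5* 53rd, *rec8* 120th, *mei4* 357th and *ssm4* 1859th. As the 8 were chosen with these libraries known, nothing is read from the ranks. Those of *rem1* and *crs1* also rest on WT values of at most 0.230 FPKM.

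On the log2(FPKM + 1) scale, which compresses ratios of low values, the *pab2*Δ minus WT difference was 4.31 for *meu10*, 3.99 for *meu32*, 2.73 for *spo5*, 2.38 for *rem1*, 2.25 for *crs1*, 1.64 for *rec8*, 1.00 for *mei4* and 0.30 for *ssm4*. Their median of 2.31 stood beside 0.19 over all genes tested. After TMM scaling the 8 differences ran from 0.11 for *ssm4* to 4.12 for *meu10*, in the same order. The pseudocount changed both size and order: with 0.1 FPKM in place of 1 the difference was 4.46 for *rem1*, 4.58 for *crs1* and 3.28 for *spo5*, and with 5 FPKM it was 0.94 for *rem1*, 0.86 for *crs1* and 1.67 for *spo5*. All 8 passed the filter of a mean of 1 FPKM over the 6 libraries, yet 3 of them, *rec8*, *rem1* and *crs1*, had a mean under 1 FPKM over the WT and *clr4-1* libraries and passed only through *pab2*Δ.

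The comparison of *clr4-1* with WT asked whether loss of normal H3 Lys9 methyltransferase function went with a change of the same transcripts. Of the 8, *meu10* rose in *clr4-1* and none fell by limma, and at an unadjusted p under 0.05 *meu10* and *rem1* were higher and none lower. Its difference of 0.45 ± 0.12 (SE, n = 2 each) had a 95% interval of 0.17 to 0.74 (adjusted p = 0.0266 from limma). This 1 call in 8 stands beside 15.1% of the 4899 genes called higher and 27.5% called lower in *clr4-1*, so it is no more frequent than among all genes. The call for *meu10* held in 6 of 13 alternative settings and was lost in a fit without the *pab2*Δ libraries (adjusted p = 0.0656 from limma), without either WT library and with a pseudocount of 5.

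*rem1* was at 4.67 times its WT mean in *clr4-1* with both libraries above both WT libraries, and its difference of 0.49 ± 0.17 (SE, n = 2 each; interval 0.06 to 0.92) missed the threshold (adjusted p = 0.0677 from limma). *rem1* averaged 0.355 FPKM over the WT and *clr4-1* libraries and entered the test only through its level in *pab2*Δ. The same holds for the fit without the *pab2*Δ libraries, which kept the filter over all 6 libraries. It passed in 5 of 12 alternative settings, among them a pseudocount of 0.1, with a difference of 1.60 (adjusted p = 0.0193 from limma), and the fit without the *pab2*Δ libraries (adjusted p = 0.0370 from limma). *meu32* differed by 0.45 ± 0.18 (interval -0.01 to 0.90, adjusted p = 0.10 from limma) and *spo5* by 0.21 ± 0.09 (interval -0.01 to 0.42, adjusted p = 0.108 from limma). Without WT replicate 2, the higher of its WT values, the difference of *meu32* was 0.70 and passed (adjusted p = 0.0212 from limma).

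No difference from WT was detected in *clr4-1* for the remaining 4. *ssm4* differed by 0.08 (interval -0.09 to 0.25, adjusted p = 0.391 from limma), *crs1* by 0.06 (interval -0.47 to 0.59, adjusted p = 0.850 from limma), *rec8* by -0.05 (interval -0.49 to 0.38, adjusted p = 0.829 from limma) and *mei4* by -0.06 (interval -0.35 to 0.24, adjusted p = 0.728 from limma). *crs1* and *rec8*, at 0.134 and 0.534 FPKM over the WT and *clr4-1* libraries, entered the test only through *pab2*Δ, and their intervals leave room for sizeable differences, and those of *ssm4* and *mei4* are narrower. The median over the 8 was 0.14 in *clr4-1*, beside -0.06 over all genes tested. For 5 of the 8 both *clr4-1* libraries lay above both WT libraries, against 26.7% of all genes tested, and for none did both lie below, in a set chosen partly on these WT libraries. By the 2-fold rule 1 of the 8 was higher in *clr4-1*, against 1.03% of 4968 genes.

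Both comparisons share the WT libraries. Side by side, *meu10* differed from WT by 4.31 in *pab2*Δ and 0.45 in *clr4-1*, *meu32* by 3.99 in *pab2*Δ and 0.45 in *clr4-1*, and *rem1* by 2.38 in *pab2*Δ and 0.49 in *clr4-1*. For each of the 8 the difference was larger in *pab2*Δ, as their choice favours, and for *ssm4*, at 0.30 in *pab2*Δ and 0.08 in *clr4-1*, that order holds only as deposited, since TMM scaling brought the 2 mutants to within 0.02 of each other.

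The likeness of the 8 profiles follows in part from how they were chosen and is given as a description. Each transcript's Pearson correlation with the mean profile of the others, itself left out, lay between 0.939, for *ssm4*, and 0.999, for *spo5* and *meu10*. These values describe 6 libraries in which 2 stand apart from the others. Other genes were compared with the mean profile of all 8. Among 956 other genes that ranged by at least 1 on the log2(FPKM + 1) scale, the 5 closest to the mean profile were *mti3*, annotated as a mitochondrial translation initiation factor, *ddr48*, *mce1*, annotated as a mitochondrial citrate transporter, and the unnamed genes SJAG_02127 and SJAG_00587, with correlations from 0.9995 to 0.9999. *ddr48* was at 735 and 763 FPKM in *pab2*Δ, 44.9 and 43.8 in *clr4-1*, and 35.6 and 32.4 FPKM in WT. *mti3* was at 27.5 and 26.6 FPKM in *pab2*Δ, 9.92 and 9.79 in *clr4-1*, and 8.96 and 8.51 FPKM in WT. None of the named genes in this group carries a meiotic annotation in the table.

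The genes on either side of the 8 were examined, since reads of neighbouring or overlapping genes can be shared. Of the 16 adjacent genes, 15 passed the filter, and in *pab2*Δ 9 of these were higher and 3 lower, beside 53.8% higher and 19.9% lower over all genes tested. Their median difference was 0.30, beside 0.19 over all genes tested, and after TMM scaling 6 were higher and 5 lower. Only 2 adjacent genes were above 2-fold by the rule used for the 8. *lsd90*, beside *rem1*, was at 90.1 and 94.7 FPKM in *pab2*Δ, 10.5 and 10.7 in *clr4-1*, and 9.94 and 10.4 FPKM in WT, which is a rise of 3.06 ± 0.05 in *pab2*Δ (SE, n = 2 each; adjusted p = 4.13e-07 from limma). Its level in *pab2*Δ was far above that of *rem1*, and in *clr4-1* it differed from WT by 0.06 (adjusted p = 0.367 from limma). SJAG_05178, beside *crs1*, was at 2.12 and 1.72 FPKM in *pab2*Δ, 0.815 and 0.428 in *clr4-1*, and 0.338 and 0.0534 FPKM in WT, and was too low to be tested. In *clr4-1*, 2 of the 15 were higher and 5 lower, beside 15.1% and 27.5% of all genes tested. The 2 were *ptc2*, beside *meu10*, by 0.28, and SJAG_00099, beside *crs1*, by 0.25 (adjusted p = 0.0115 and 0.0226 from limma).

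Of the 8, 4 overlap an adjacent gene in the RefSeq annotation. *rec8* overlaps *atp7*, *spo5* overlaps *pcf1*, *crs1* overlaps SJAG_00099 and *meu32* overlaps *rib1*, and for these the values are uncertain if the counting did not use strand, although the libraries were strand-specific. In *pab2*Δ the 4 overlapping genes rose by 0.30, 0.52, 0.46 and 0.38, in that order. Each had an adjusted p of at most 0.000828 from limma, where 53.8% of all genes tested rose. After TMM scaling the 4 rises were 0.09, 0.31, 0.26 and 0.17. *atp7* was at 43.2 and 42.4 FPKM in *pab2*Δ, 28.8 and 29.0 in *clr4-1*, and 34.3 and 34.9 FPKM in WT, levels well above those of *rec8* in every library.

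**Figure D2:**
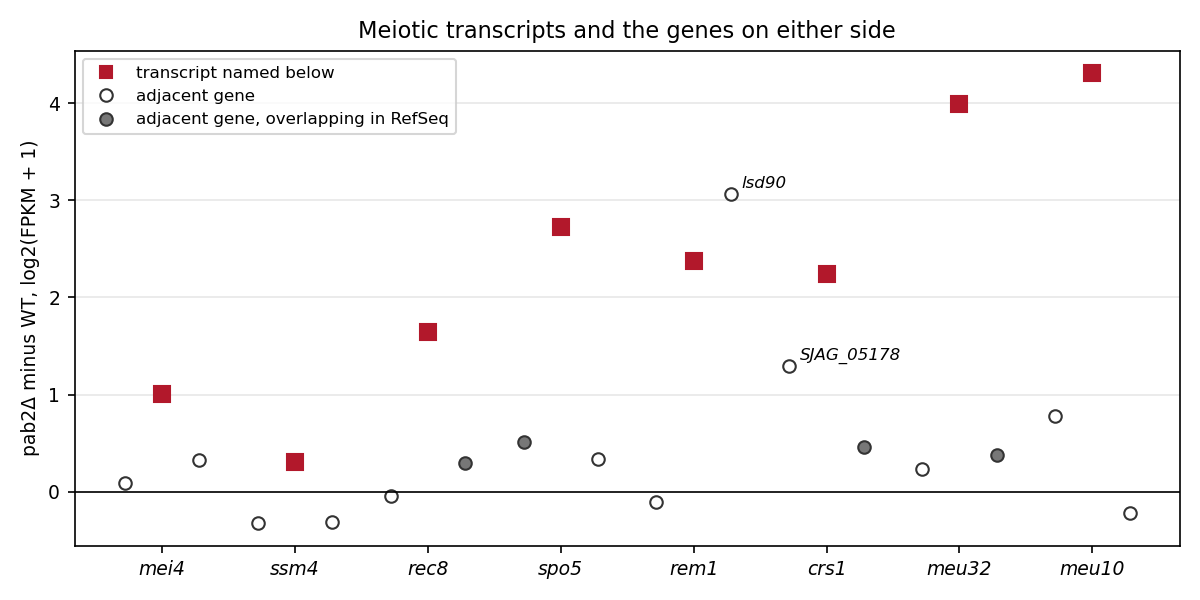
Difference in log2(FPKM + 1) between *pab2*Δ and WT on the y axis, for the 8 meiotic transcripts (squares) and the gene on either side of each (circles, filled where RefSeq has the genes overlapping). Apart from *lsd90* and SJAG_05178, the adjacent genes lie within 0.78 of 0.

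Genes that work with the 8 in meiosis were grouped in lists, which were chosen with earlier results of these data known. Most genes named from them were picked for the size of their change, so their p-values are descriptive. In the lists, *pat1*, *dhc1*, *spo13* and *mug27* averaged under 1 FPKM over the WT and *clr4-1* libraries and passed the filter only through *pab2*Δ. In the list of controls of meiotic entry, 5 of 13 genes rose and 2 fell in *pab2*Δ, beside 53.8% and 19.9% of all genes tested, with a median of 0.22 beside 0.19, and after TMM scaling 3 rose and 3 fell. In *clr4-1* 5 of the 13 fell and none rose by limma, with 6 lower and 0 higher at an unadjusted p under 0.05, where 27.5% of all genes fell and 15.1% rose after adjustment. *atf31*, a gene for a bZIP transcription factor, was at 7.42 and 6.98 FPKM in *pab2*Δ against 0.984 and 2.16 FPKM in WT, and rose by 1.71 ± 0.23 (adjusted p = 0.000914 from limma). Its relative *atf21* fell by 1.03 in *pab2*Δ and fell by 1.74 in *clr4-1*, with 42.6 and 44.7 FPKM in *pab2*Δ, 25.1 and 27.3 in *clr4-1*, and 94.0 and 86.3 FPKM in WT. *ste11*, the gene for the transcription factor that starts sexual differentiation, was at 3.77 and 4.27 FPKM in *pab2*Δ, 1.12 and 0.842 in *clr4-1*, and 4.03 and 3.38 FPKM in WT, and fell by 1.25 in *clr4-1* (adjusted p = 0.00193 from limma). *mei2*, whose RNA-binding product promotes entry into meiosis, was at 17.7 and 17.1 FPKM in *pab2*Δ, 10.7 and 10.8 in *clr4-1*, and 26.1 and 26.8 FPKM in WT, and fell by 1.22 in *clr4-1*. In *pab2*Δ, *mei2* fell by 0.58 and *ste11* differed by 0.10 (adjusted p = 0.566 from limma). The 5 genes of this list that rose in *pab2*Δ were *atf31*, *res2* by 0.50, *mfr1* by 0.34, *rsv2* by 0.32 and *rep2* by 0.29. The genes *ste11* and *mei2* were not among them. Any part of meiotic entry in the rise of the 8 was not tested.

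The partners of Rec8 were mixed. Among 14 genes of sister chromatid cohesion, 10 rose and 1 fell in *pab2*Δ (53.8% and 19.9% of all genes), with a median of 0.33, and after TMM scaling 5 rose and 1 fell. *sgo1*, whose meiotic shugoshin protects Rec8 at centromeres in *S. pombe*, was at 10.7 and 10.5 FPKM in *pab2*Δ, 1.56 and 1.43 in *clr4-1*, and 0.754 and 0.976 FPKM in WT, which is a rise of 2.64 ± 0.12 in *pab2*Δ (adjusted p = 1.29e-05 from limma). *sgo1* also rose in *clr4-1*, by 0.42 ± 0.12 (adjusted p = 0.0321 from limma). *rec11*, a meiotic cohesin gene whose product pairs with Rec8 on chromosome arms, was at 11.4 and 11.7 FPKM in *pab2*Δ against 3.99 and 3.64 FPKM in WT and rose by 1.38. The mitotic counterpart *rad21* fell by 0.27 in *pab2*Δ and by 0.35 in *clr4-1*.

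Among 15 genes of nuclear movement, which work with Ssm4, 8 rose and 3 fell in *pab2*Δ, near the 53.8% and 19.9% of all genes, with a median of 0.18, and after TMM scaling 6 rose and 4 fell. *mcp6*, needed for the astral microtubules of meiotic prophase in *S. pombe*, was at 7.59 and 9.76 FPKM in *pab2*Δ against 2.75 and 2.76 FPKM in WT and rose by 1.36 ± 0.13 (adjusted p = 0.000217 from limma). Of 10 other cyclin genes, 3 rose and 5 fell in *pab2*Δ (53.8% and 19.9% of all genes), with a median of -0.08, and after TMM scaling 2 rose and 5 fell. Since *rem1* and *crs1* were chosen partly on these libraries, nothing is read from a contrast with them. Among the 10, only *cig2*, a cyclin gene of S phase, rose by more than 1. It was at 38.2 and 35.5 FPKM in *pab2*Δ, 16.3 and 17.8 in *clr4-1*, and 14.8 and 14.4 FPKM in WT, which is a rise of 1.28 in *pab2*Δ.

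Of 18 genes of spore formation, the process in which *meu10* and *spo5* act, 12 rose and 2 fell in *pab2*Δ (53.8% and 19.9% of all genes), with a median of 0.26, and after TMM scaling 7 rose and 5 fell. All 6 markers of late sporulation belong to this list too, so their count below is not a separate observation. *meu14*, whose product marks the leading edge of the forespore membrane in *S. pombe*, was at 19.3 and 18.2 FPKM in *pab2*Δ, 2.87 and 3.07 in *clr4-1*, and 2.29 and 2.14 FPKM in WT, and rose by 2.62 ± 0.08 in *pab2*Δ (adjusted p = 3.46e-06 from limma). The kinase gene *mug27* was at 4.0 and 4.29 FPKM in *pab2*Δ against 0.135 and 0.177 FPKM in WT and rose by 2.15. The chitin synthase gene *chs1* rose in both mutants, by 1.40 in *pab2*Δ and 0.61 in *clr4-1*. The chitin deacetylase gene *cda1* fell in both, with 12.4 and 12.6 FPKM in *pab2*Δ, 13.8 and 13.0 in *clr4-1*, and 75.7 and 70.8 FPKM in WT. In *clr4-1*, 5 of the 18 rose and 5 fell, beside 15.1% and 27.5% of all genes.

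In the elimination machinery itself, 7 of 11 genes rose and 2 fell in *pab2*Δ, near the 53.8% and 19.9% of all genes, with a median of 0.27, and after TMM scaling 4 rose and 3 fell. In *clr4-1*, 1 of the 11 fell and none rose by limma, with 1 higher at an unadjusted p under 0.05, and after TMM scaling 2 rose and none fell. *erh1*, whose product binds Mmi1 in *S. pombe*, was at 39.7 and 44.5 FPKM in *pab2*Δ, 80.3 and 77.3 in *clr4-1*, and 92.0 and 97.7 FPKM in WT, and fell by 1.15 in *pab2*Δ (adjusted p = 2.85e-05 from limma). *mmi1* was at 78.7 and 79.4 FPKM in *pab2*Δ, 44.1 and 40.7 in *clr4-1*, and 46.1 and 43.2 FPKM in WT, and rose by 0.81 in *pab2*Δ (adjusted p = 5.09e-05 from limma).

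Among the markers of late sporulation, *meu14* and *mug27* were high in *pab2*Δ as above, while *agn2*, an enzyme gene of ascus wall breakdown in *S. pombe*, was at 24.1 and 25.1 FPKM in *pab2*Δ against 26.2 and 28.4 FPKM in WT. *bgs2*, needed for the spore wall in *S. pombe*, was at 2.62 and 2.92 FPKM in *pab2*Δ against 2.29 and 2.51 FPKM in WT. In all, 4 of 6 late sporulation markers (3 after TMM scaling) and all 3 mating markers rose in *pab2*Δ, where 53.8% of all genes rose, the mating gene *ste6* by 1.04 with 8.17 and 8.61 FPKM in *pab2*Δ against 3.68 and 3.44 FPKM in WT. Of the late sporulation markers counted as rising, *mug27* and *spo13* entered the count only through their levels in *pab2*Δ.

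**Figure D3:**
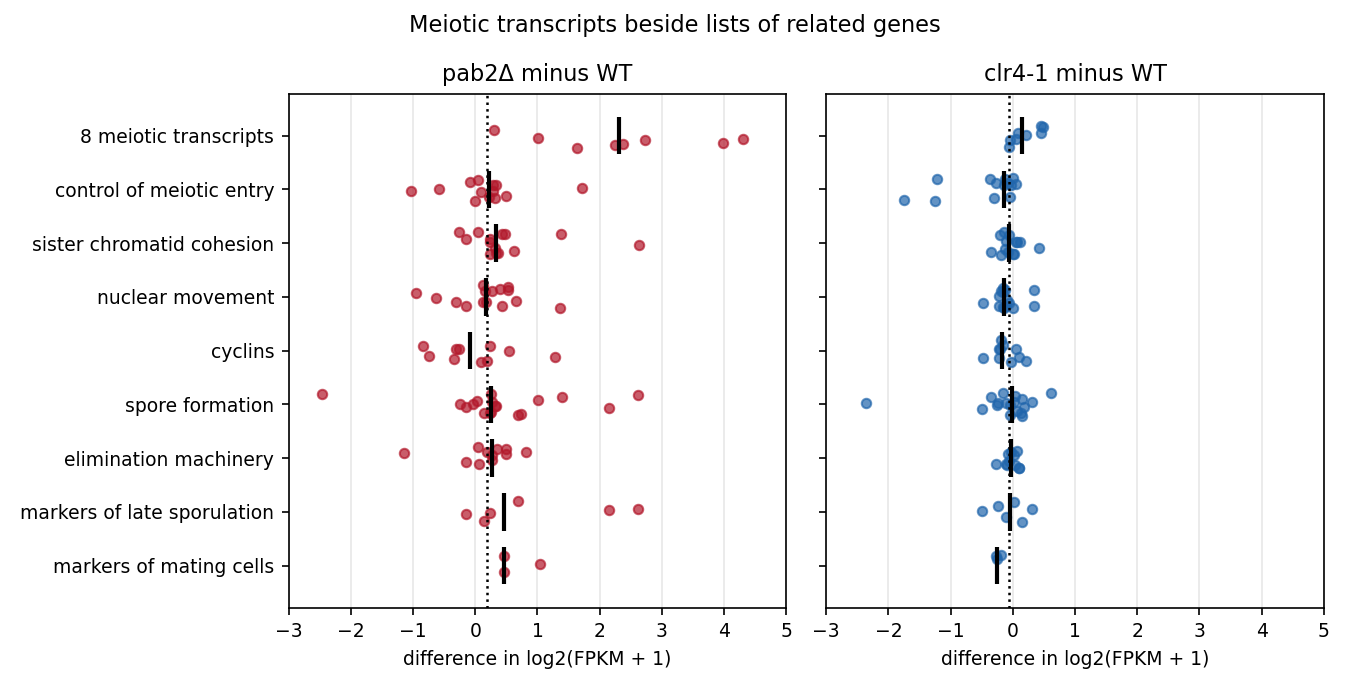
Difference from WT in log2(FPKM + 1) on the x axis for the 8 meiotic transcripts and for each list of related genes (rows), in *pab2*Δ on the left and *clr4-1* on the right; points are genes, thick bars the median of a row and the dotted line the median of all genes tested. The row medians of the 6 lists of related genes in *pab2*Δ lie between -0.08 and 0.33 and that of the 8 transcripts, whose choice used these libraries, at 2.31.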

How the data were processed

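Total RNA of *pab2*Δ, *clr4-1* and WT cells was sequenced by the authors from strand-specific libraries, 2 per strain. The submitters' processing notes name FastQC 0.11.6, STAR 2.5.3a and StringTie 1.3.1c. The genome build, the annotation, the handling of reads that fit several genes and whether counting used strand are not given in the sources used here. The authors deposited 1 table of FPKM values, the unit being inferred from the fractional values and their unequal sums, and 4 columns of their own mutant to WT ratios, which were not used. Between 276 and 344 genes per library were listed at 0, which can be a failed estimate. The *pab2*Δ columns carry no replicate number.

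The test was limma 3.58.1 in R 4.3.3, applied to log2(FPKM + 1), which understates changes of low genes. Genes averaging 1 FPKM or more over the 6 libraries entered it, in 1 model of the 3 strains with an intensity trend and Benjamini-Hochberg adjustment over all 4899 genes, called at an adjusted p-value under 0.05. The 2-fold rule compared the lowest mutant library with the highest WT library. Adjacent genes came from the gene order of the RefSeq assembly SJ5, in which 5213 of the genes were found by locus tag. Positions are left out, since the sources name no build for the values. No transcript, promoter or protein sequence was used here. P-values rest on the spread between the 2 libraries of each strain, pooled over the 3 strains and moderated toward the intensity trend. Replicate libraries had Spearman correlations across genes of 0.994 to 0.996.

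The 8 genes and the lists were chosen with earlier results of these data known. Genes were named by rule: the 8, *pab2* and *clr4*, adjacent genes, the 5 genes with the most similar profile, and in each list up to 3 genes per strain and direction with the largest called changes of at least 1. *rad21*, *mmi1*, *agn2*, *bgs2*, *res2*, *mfr1*, *rsv2*, *rep2*, *pat1*, *dhc1* and *spo13*, and smaller changes of genes so named, were added after their values were seen. The symbol *hrs1* was left out of its list because it names a tRNA ligase here. The scripts were tested on simulated data. Alternatives tried were a pseudocount of 0.1 or 5, a filter at 5 FPKM or none, TMM factors, fits of 4 libraries, a 3-fold rule, a replicate block and leaving out each library. Python 3.11.15 with pandas 2.3.3, numpy 2.4.6 and matplotlib 3.10.9 was used otherwise.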

Additional observations from a re-analysis of the deposited data

How the results depend on the processing

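With TMM factors, *pab2*Δ had 1612 genes higher and 1692 lower than WT (2634 and 977 as deposited), 865 were lower in *clr4-1* (1345 as deposited; 1030 and 740 higher), and 161 in place of 99 were more than 2-fold lower in *pab2*Δ. TMM factors also changed list counts. Genes called higher in *pab2*Δ became 3 for meiotic entry, 5 for cohesion, 7 for spore formation and 4 for the elimination machinery, and genes called lower became 5 for spore formation and 1 for late sporulation markers. In *clr4-1* the lower counts became 1 for nuclear movement, 2 for cyclins, 0 for the elimination machinery and 1 for late sporulation markers, and 2 genes of the elimination machinery became higher. Under the same factors *ssm4* in *pab2*Δ minus *clr4-1* was -0.023.

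Of the 8 transcripts, 2 were called in *clr4-1* with a pseudocount of 0.1, 0 with a pseudocount of 5, and 3 without a filter, against 1 in the report. Leaving out 1 library gave 0 to 1, with 0 in the fit without WT replicate 1. Where 1 was called with a library left out, it was not always *meu10*. At a 3-fold rule *pab2*Δ had 221 genes higher and 47 lower and *clr4-1* had 24 lower, against 378, 99 and 58 at 2-fold. Leaving out 1 library gave 750 to 1146 genes lower in *clr4-1*, with 750 in the fit without WT replicate 2, and 1 or 2 of the 8 more than 2-fold higher, 2 in the absence of WT replicate 2. With 1 library left out, the *clr4-1* difference ran from -0.19 to 0.075 for *mei4*, from -0.18 to 0.079 for *rec8* and from -0.093 to 0.21 for *crs1*, so their directions changed. The cause of these shifts was not tested.

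Only the *clr4-1* and WT libraries share replicate numbers. Their deviations correlated at -0.094, so the numbers were not taken to pair them. In fits of these 4 libraries, the replicate block gave 573 genes higher and 828 lower in *clr4-1* and 0 of the 8, and the fit without it gave 682 higher, 1136 lower and 1 of the 8, *rem1*. Both fits kept the filter over all 6 libraries, which *rem1* passed only through *pab2*Δ. No paired analysis was possible for *pab2*Δ because its columns carry no replicate numbers. With 2 libraries per strain and no read numbers, differences at levels under 1 FPKM are the least certain, and the remaining settings left the direction of each of the 8 transcripts in *pab2*Δ minus WT as reported. The scaling of the adjacent genes and of *pab2*Δ minus *clr4-1*, and the 2-fold rule with a library left out, were added after seeing the data.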
